A study of Homo sapiens with 8 samples.

Results

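The genes described here encode 9 enzymes of the mevalonate pathway up to squalene, ACAT2, HMGCS1, MVK, PMVK, MVD, IDI1, FDPS, GGPS1 and FDFT1, out of 60332 genes with a value. They were selected by gene symbol, with the row of highest mean taken per symbol; each symbol had 1 row, so that step removed nothing. The list was chosen with earlier results of these libraries known, including the response to silencing in SK-N-MC, so that the values of the eKD2 comparison are a description of these 9 genes and not independent support for a change of the pathway. The RNA came from 2 established Ewing sarcoma cell lines, RD-ES and SK-N-MC. In each line, 2 control libraries came from cells carrying dCas9-KRAB (a DNA-binding Cas9 with no cutting activity, joined to the KRAB repressor domain) from a lentivirus with no guide, called parental cells in the study. The 2 eKD2 libraries of each line came from cells with dCas9-KRAB and a guide next to the GGAA repeat of the LOXHD1 enhancer. All 4 groups thus carried dCas9-KRAB, driven by the human ubiquitin C promoter, and the infected cells were kept as pools rather than single clones. Infection was at a multiplicity of 10, followed by 3 days in 1 µg/ml puromycin, and cells were taken within 5 passages. The libraries of a group are called biological duplicates in the study. Levels are given in FPKM (fragments scaled to transcript length and to the reads mapped in the library), and a change is the difference of mean log2(FPKM + 1) between 2 groups. A gene is said to pass where limma, a linear model with a spread shared between genes, gave an adjusted p under 0.05 over the 15175 genes that averaged 1 FPKM or more.

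The mevalonate pathway builds isoprenoids from acetyl-CoA. Its first steps join acetyl-CoA units into HMG-CoA, the precursor of mevalonate; kinases and a decarboxylase then make the activated isoprene unit, and prenyl synthases join these units into farnesyl diphosphate. Farnesyl diphosphate stands at a branch, since it feeds squalene and cholesterol on one side and protein prenylation, ubiquinone and dolichol on the other. Most genes of the pathway are known targets of SREBP-2, a membrane-bound transcription factor that is released when sterols are low.

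On GRCh37, the build of the deposited values, the 9 genes lie on 7 chromosomes. ACAT2 spans chr6:160183077-160200144 on the plus strand, HMGCS1 chr5:43287572-43313614 on the minus strand, MVK chr12:110011060-110035930 on the plus strand and PMVK chr1:154897216-154909195 on the minus strand. MVD spans chr16:88718343-88729569 and IDI1 chr10:1085092-1095059, both on the minus strand, while FDPS (chr1:155278539-155290457), GGPS1 (chr1:235490665-235507847) and FDFT1 (chr8:11653082-11696904) are on the plus strand. Several overlap a gene on the other strand, and the library kit does not mark strand, so reads in the shared exons cannot be assigned. ACAT2 shares 454 exonic bases, 17.2% of its own, with TCP1, a chaperonin subunit gene at 311 to 536 FPKM. It also shares 133 (5.04%) with SOD2 and 98 (3.71%) with SOD2-OT1, whose levels were not analysed here. TCP1 itself differed by -0.05 between eKD2 and control in RD-ES and by -0.02 in SK-N-MC, with limma adjusted p of 0.83 and 0.95. MVK shares 225 exonic bases (2.5%) with MMAB and GGPS1 shares 138 (3.62%) with ARID4B. In RD-ES, MMAB was at 32.0 and 29.3 FPKM in control and 39.4 and 34.6 in eKD2, a change of 0.26 (unadjusted p = 0.023, limma adjusted p = 0.32). ARID4B was at 19.6 and 18.6 FPKM in RD-ES control and 28.9 and 26.5 in eKD2, with a value of 0.51 (unadjusted p = 0.0011, limma adjusted p = 0.14), and its value for SK-N-MC was -0.17 (limma adjusted p = 0.50). Neither passed, and their part in the values of MVK and GGPS1 was not tested. An unnamed protein-coding gene on the strand of GGPS1, not analysed here, shares 1422 of its exonic bases (37.3%), so its level is less certain. The antisense RNAs that overlap HMGCS1, IDI1, FDPS and FDFT1 were at or below 1.40 FPKM in every library. FDPS has processed pseudogenes, of which the highest was at 0.751 FPKM.

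LOXHD1, the target of the guide, was at 21.4 and 21.2 FPKM in the RD-ES control libraries and at 1.04 and 1.02 in RD-ES eKD2. In SK-N-MC it was at 159 and 169 FPKM in the controls and at 11 and 12 in eKD2. It passed the test in both lines, with log2(FPKM + 1) changes of -3.46 (RD-ES, limma adjusted p = 0.00011) and -3.73 (SK-N-MC, limma adjusted p = 3.7e-05). The labels of all 8 libraries therefore matched the level of the target. The Ewing sarcoma markers CD99, NKX2-2, STEAP1, FLI1 and EWSR1 were between 20.3 and 586 FPKM in every library, and NR0B1 was at 2.38 to 3.84 FPKM in RD-ES and 51.0 to 59.6 in SK-N-MC. Of the markers of other cells, PTPRC (leukocytes) was at or below 0.0173 FPKM in RD-ES and at 19.2 to 22.6 in SK-N-MC, COL3A1 (fibroblasts) at 0.614 to 1.009 and 50.6 to 56.8, EPCAM (epithelium) at 0.300 to 0.971 and 2.96 to 4.54, and MYOD1 (muscle) at or below 0.0790 in both lines. These differences lie between the lines; within a line, none of the 3 tested passed between control and eKD2 (0 at an unadjusted p under 0.05), and their part in the results was not tested. The endothelial marker PECAM1 was not analysed here. A rough depth of 6.71 to 26.9 M reads (M, mega) per library was estimated from the value of 1 read in genes with 1 transcript. It was lowest in RD-ES eKD2 replicate 1.

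Promoter windows of 300 bases, from 250 bases before to 50 after a start site, were taken from RefSeq on GRCh38.p14, a later build than that of the values. Windows of 7 of the 9 genes were used, 12 windows in all. None was used for ACAT2 or FDFT1, which were also lower in SK-N-MC eKD2, so the counts below leave them out. Windows are printed below for HMGCS1 and FDPS, which were lower in SK-N-MC eKD2. That of PMVK, whose level was close in all libraries of a line, is printed beside them. These genes were picked by their values, and a link between promoter elements and the changes was not tested. Capitals mark CCAAT boxes (CCAAT, or ATTGG where the box lies on the other strand), the element bound by NF-Y, a factor known to act beside SREBP-2 at sterol genes. The HMGCS1 window is chr5:43313363-43313662 (minus strand), that of FDPS chr1:155308616-155308915 (plus strand) and that of PMVK chr1:154936670-154936969 (minus strand).
HMGCS1: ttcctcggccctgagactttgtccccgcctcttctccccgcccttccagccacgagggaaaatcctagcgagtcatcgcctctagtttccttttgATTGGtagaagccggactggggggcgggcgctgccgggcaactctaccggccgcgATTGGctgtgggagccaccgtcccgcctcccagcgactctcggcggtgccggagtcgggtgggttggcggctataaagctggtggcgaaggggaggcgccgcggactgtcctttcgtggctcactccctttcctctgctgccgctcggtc
FDPS: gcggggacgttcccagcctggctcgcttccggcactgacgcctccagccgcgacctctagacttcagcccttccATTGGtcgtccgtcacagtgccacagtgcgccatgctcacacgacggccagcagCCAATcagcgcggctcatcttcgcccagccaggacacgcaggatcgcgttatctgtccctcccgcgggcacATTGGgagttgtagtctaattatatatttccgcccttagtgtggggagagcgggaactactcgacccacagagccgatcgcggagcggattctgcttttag
PMVK: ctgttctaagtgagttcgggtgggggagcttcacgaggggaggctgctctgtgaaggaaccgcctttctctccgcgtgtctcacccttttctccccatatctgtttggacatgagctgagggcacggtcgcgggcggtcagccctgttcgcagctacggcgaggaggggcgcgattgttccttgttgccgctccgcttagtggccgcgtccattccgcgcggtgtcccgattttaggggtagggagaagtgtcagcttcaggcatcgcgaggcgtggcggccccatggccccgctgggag

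The HMGCS1 window held 2 CCAAT boxes, that of FDPS 3 and that of PMVK 0. Of the other genes, MVK held 5 and MVD 3, the 3 windows of IDI1 held 0, 2 and 3 (the last counts a pair of boxes that share bases on opposite strands), the 3 of GGPS1 held 0, 1 and 0, and the second window of HMGCS1 held 0. Of 35116 RefSeq promoter windows of that length, 34.6% held at least 1 CCAAT box and 3.26% held 3 or more, on either strand. The sterol regulatory element written as TCACNCCAC was in 1.13% of all windows and the E-box CACGTG in 7.26%. Neither was in the 12 windows used, which leave out ACAT2 and FDFT1. This says only that these letters are not in these windows. The GC box GGGCGG, present in 45% of all windows, occurred in 11 of the 12.

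The level of each enzyme gene was compared first within the control cells. FPKM is divided by transcript length, which allows genes to be compared with each other. FDPS, which makes farnesyl diphosphate, was the highest in every group, with 183.7 ± 0.927 FPKM (mean ± SD, n = 2) in RD-ES control and 206.6 ± 13.3 in SK-N-MC control. FDFT1, squalene synthase, came next; in SK-N-MC control its 186 and 203 FPKM overlapped those of FDPS, 197 and 216, whereas in RD-ES control its 85.1 and 74.5 FPKM were well below the 183 and 184 of FDPS. ACAT2 and GGPS1 shared the next place in RD-ES control, with the same mean of 47.5 FPKM and overlapping libraries. IDI1 and PMVK followed at 30.4 and 30.2 FPKM, again overlapping, and HMGCS1 was at 22.5. In SK-N-MC control ACAT2 (68.2 FPKM) overlapped HMGCS1 (67.5), and GGPS1 (60.6) overlapped PMVK (60.5), with IDI1 at 26.6. The lowest levels in both lines were those of MVD, the mevalonate diphosphate decarboxylase, at 11.6 and 17.8 FPKM, and MVK, mevalonate kinase, at 9.52 and 9.34.

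**Figure D1:**
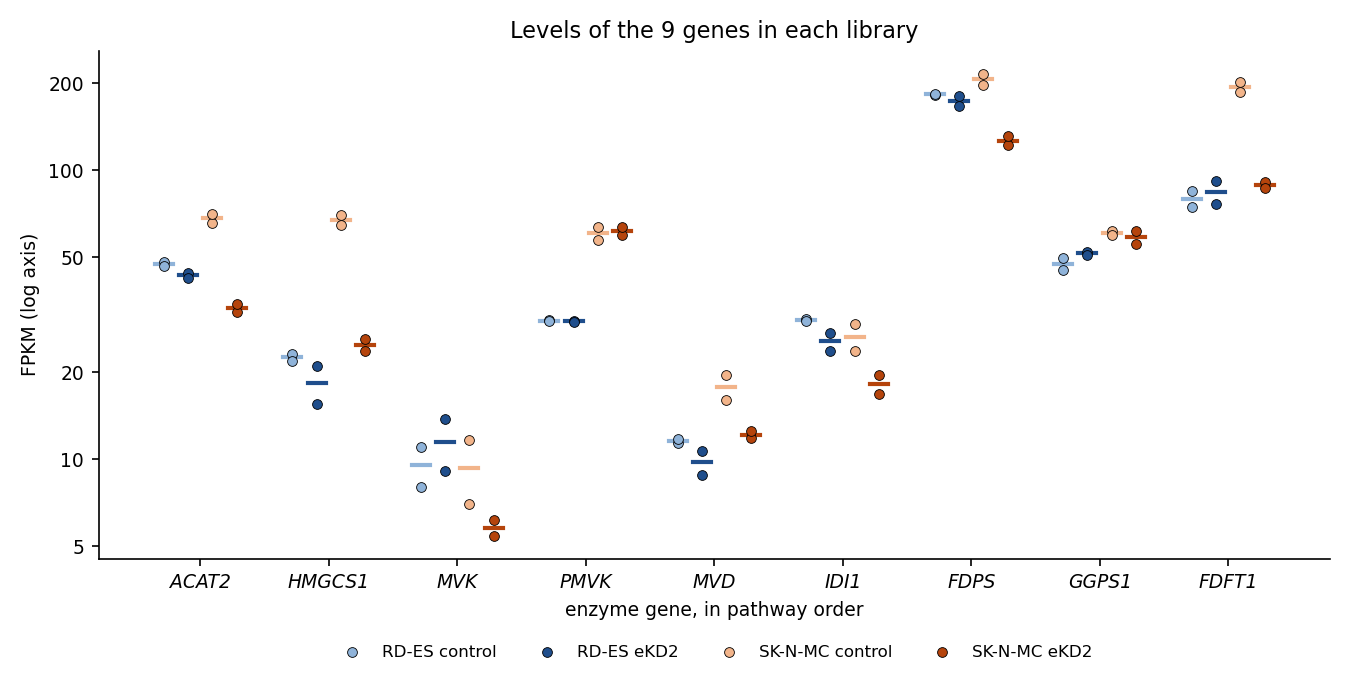
Level of each gene in each library, in FPKM on a log axis, for the 9 genes in pathway order; points are libraries (2 per group) and bars the group means. In SK-N-MC the eKD2 points of ACAT2, HMGCS1, FDPS and FDFT1 lie well below the control points, while those of PMVK and GGPS1 overlap them.

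Control SK-N-MC cells had more RNA of most of these enzymes than control RD-ES cells. By limma with Benjamini-Hochberg adjustment over the 15175 genes tested, 6 of the 9 were higher in SK-N-MC at an adjusted p under 0.05, as were 31.4% of all genes tested. None of the 9 was lower at that threshold, beside 4008 of all 15175 genes. Likewise 0 of the 9 were lower at an unadjusted p under 0.05, beside 4361 of all genes. HMGCS1 was at 70.1 and 64.9 FPKM in SK-N-MC control against 23.2 and 21.9 in RD-ES control, a difference of 1.54 ± 0.143 on the log2(FPKM + 1) scale (± SE; adjusted p = 0.00030). FDFT1 differed by 1.28 (adjusted p = 0.00026) and PMVK, at 57.6 and 63.5 against 30.3 and 30.1 FPKM, by 0.98 (adjusted p = 0.00015). MVD (0.58), ACAT2 (0.51) and GGPS1 (0.35) were also higher, with adjusted p of 0.010, 0.0017 and 0.013. The call of GGPS1 was lost with each library scaled to the same median (0.20, limma adjusted p = 0.13), without RD-ES control replicate 2 (adjusted p = 0.058) and without SK-N-MC control replicate 1 (adjusted p = 0.062). That of MVD was lost without RD-ES control replicate 1 (limma adjusted p = 0.055) and without SK-N-MC control replicate 1 (adjusted p = 0.062). The differences of FDPS (0.17), MVK (-0.05, but 0.28 without SK-N-MC control replicate 1 and 0.16 without RD-ES control replicate 2) and IDI1 (-0.19) did not pass. The median over the 9 genes was 0.51, beside 0.065 over all genes tested. With each library scaled to the same median these were 0.37 and -0.042. In bulk RNA, a smaller number of cells with a transcript and less of it per cell cannot be told apart.

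In SK-N-MC, silencing of the LOXHD1 enhancer went with lower RNA of ACAT2 and HMGCS1 at the entry of the pathway. FDPS and FDFT1 at its exit were lower too. Between these, MVK (-0.57), MVD (-0.51) and IDI1 (-0.52) also had lower values but did not pass. The eKD2 and control libraries of PMVK and GGPS1 overlapped. Of the 9 genes, 4 fell with an adjusted p under 0.05 and none rose, where 0.323% of all genes tested passed in either direction and 0.171% were lower. At an unadjusted p under 0.05, 6 of the 9 were lower, beside 7.29% of all genes. Both eKD2 libraries lay below both control libraries for 7 of the 9, beside 25.1% of all genes tested. The median change was -0.57, beside -0.0049 over all genes. The summed level of the 9 genes was 694 and 729 FPKM in the controls and 431 and 430 in eKD2.

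At the first step, ACAT2, the cytosolic thiolase that joins acetyl-CoA units to acetoacetyl-CoA, was at 65.6 and 70.8 FPKM in SK-N-MC control and 32.4 and 34.5 in SK-N-MC eKD2. The groups were far apart, and the mean fell by 50.9% (log2 change -1.01 ± 0.0739 SE, limma adjusted p = 0.0084). HMGCS1, the cytosolic synthase that makes HMG-CoA, had the largest change of the 9. It was at 70.1 and 64.9 FPKM in the controls and 26.1 and 23.7 in eKD2, so that its mean fell by 63.1% (-1.40 ± 0.143, limma adjusted p = 0.032). Both genes stood above their RD-ES level in SK-N-MC control. In SK-N-MC eKD2, HMGCS1 was just above its RD-ES control level (23.2 and 21.9 FPKM) and ACAT2 below its own (48.4 and 46.7).

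None of the 3 enzymes that phosphorylate and decarboxylate mevalonate passed, and MVD had an unadjusted p under 0.05. MVK, the first kinase, was at 7.003 and 11.7 FPKM in SK-N-MC control and 6.16 and 5.44 in eKD2; its control libraries were far apart, and the change of -0.57 did not pass (95% interval -1.27 to 0.13, limma adjusted p = 0.48). The value depended on the control libraries, at -0.90 without SK-N-MC control replicate 1 and -0.24 without SK-N-MC control replicate 2. MMAB, the cobalamin adenosyltransferase gene that lies head to head with MVK, was at 45.7 and 45.5 FPKM in control and 32.8 and 33.2 in eKD2, a change of -0.46 (limma adjusted p = 0.16). PMVK, the second kinase, was at 57.6 and 63.5 FPKM in control and 59.6 and 63.6 in eKD2, which overlap almost fully. Its change was 0.03, with a 95% interval of -0.16 to 0.21. MVD was at 19.6 and 16.1 FPKM in control and 11.8 and 12.5 in eKD2, and its change of -0.51 had an unadjusted p of 0.0077 and a limma adjusted p of 0.21.

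**Figure D2:**
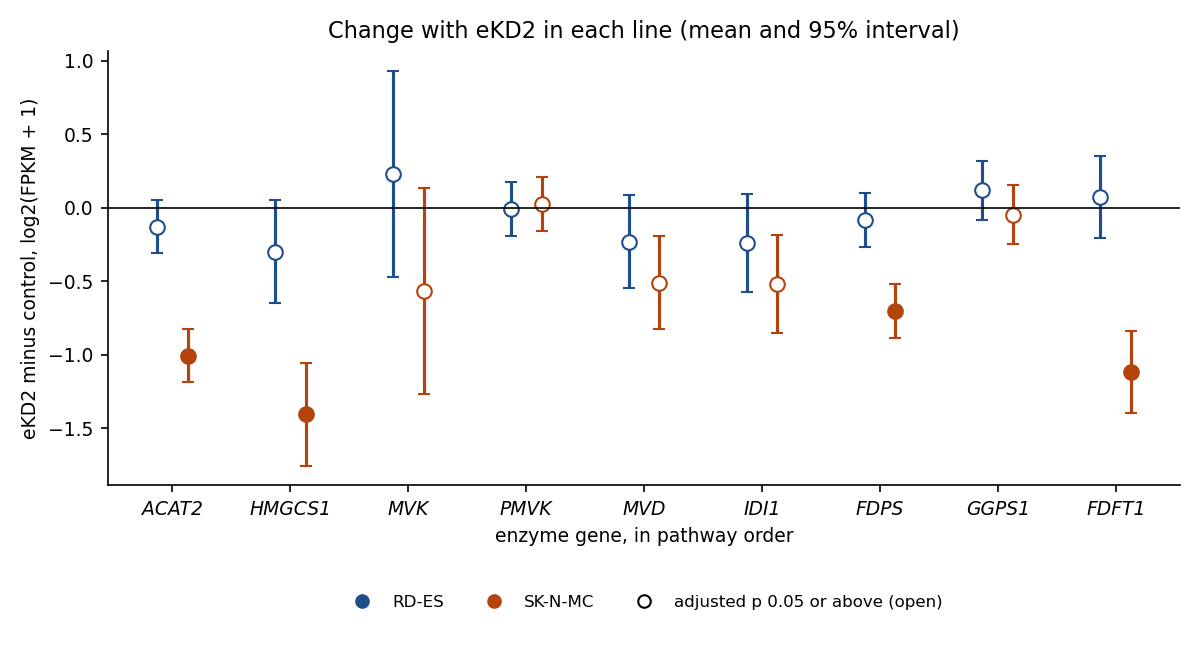
Change of each gene with eKD2 in RD-ES and SK-N-MC, as the difference of log2(FPKM + 1) with its 95% interval from limma; filled points have an adjusted p under 0.05. The filled points are ACAT2, HMGCS1, FDPS and FDFT1 in SK-N-MC, at -1.01, -1.40, -0.70 and -1.12, and every RD-ES point is open.

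The isomerase gene IDI1, which interconverts the 5-carbon diphosphates, was at 29.5 and 23.7 FPKM in SK-N-MC control and 19.6 and 16.8 in eKD2. The libraries did not overlap, and the change was -0.52 (unadjusted p = 0.0089, limma adjusted p = 0.22). FDPS was at 197 and 216 FPKM in control and 122 and 131 in eKD2, and its mean fell by 38.6% (-0.70 ± 0.0753, limma adjusted p = 0.034). Its control and eKD2 libraries stood far apart. At the branch, GGPS1, which makes geranylgeranyl diphosphate for protein prenylation, was at 61.5 and 59.7 FPKM in control and 61.9 and 55.4 in eKD2. Its libraries overlapped and its change was -0.05, with a 95% interval of -0.25 to 0.15. FDFT1, which commits farnesyl diphosphate to sterols, was at 186 and 203 FPKM in control and 90.9 and 87.1 in eKD2, so that its mean fell by 54.2% (-1.12 ± 0.114, limma adjusted p = 0.032). The FDFT1 level in SK-N-MC eKD2 was just above that of RD-ES control (85.1 and 74.5 FPKM), whereas FDPS was below its RD-ES control level of 183 and 184.

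Ratios taken within a library do not depend on how libraries were scaled. Each pair set a gene that was lower in SK-N-MC eKD2 over PMVK or GGPS1, whose libraries overlapped there. The pairs were chosen with these values known, so lower ratios in SK-N-MC eKD2 follow from the choice and add no support. The ratio of FDFT1 to GGPS1 was 3.03 and 3.39 in SK-N-MC control and 1.47 and 1.57 in SK-N-MC eKD2. In RD-ES it was 1.71 and 1.64 in control and 1.76 and 1.5 in eKD2, which overlap. The ratio of HMGCS1 to PMVK was 1.22 and 1.02 in SK-N-MC control and 0.437 and 0.373 in eKD2, and that of ACAT2 to PMVK went from 1.14 and 1.12 to 0.544 and 0.543. In RD-ES, HMGCS1 to PMVK was 0.764 and 0.728 in control and 0.698 and 0.520 in eKD2, which do not overlap, and ACAT2 to PMVK was 1.6 and 1.55 in control and 1.47 and 1.42 in eKD2, again without overlap. FDPS to GGPS1 was 3.69 and 4.06 in RD-ES control and 3.45 and 3.27 in RD-ES eKD2, also apart, and in SK-N-MC 3.21 and 3.62 against 1.97 and 2.37. How often ratios of other gene pairs separate in RD-ES was not counted, and these separations were not tested. With 2 libraries against 2, full separation has a two-sided exact permutation p of 0.333. By limma, 0 of the 9 genes had an unadjusted p under 0.05 in RD-ES. FDPS kept a near-constant part of the summed level of the 9 genes, at 28.4% and 29.6% in SK-N-MC control and 28.4% and 30.5% in eKD2, while the part of PMVK went from 8.29% and 8.71% to 13.8% and 14.8%.

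In RD-ES, where LOXHD1 was also silenced, none of the 9 genes passed the test (limma), and 0 of the 9 had an unadjusted p under 0.05. Of all genes tested in RD-ES, 0.343% passed in either direction, 0.0791% were lower with an adjusted p under 0.05 and 3.79% were lower at an unadjusted p under 0.05. The median change of the 9 was -0.082, beside 0.032 over all genes tested. Both eKD2 libraries lay below both controls for 5 of the 9 (ACAT2, HMGCS1, MVD, IDI1 and FDPS), beside 15.1% of all genes. With each library scaled to the same median these were 6, with PMVK added, beside 23.8%. With quantile normalization they were 5, with PMVK in place of FDPS, beside 19%. The summed level of the 9 was 469.7 and 456 FPKM in control and 466 and 430 in eKD2.

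HMGCS1 had the lowest value of the 9 in RD-ES, -0.30, with 23.2 and 21.9 FPKM in control and 21.0 and 15.6 in eKD2. That value moved with the eKD2 library left out, to -0.09 without RD-ES eKD2 replicate 2 and -0.50 without RD-ES eKD2 replicate 1. ACAT2 was at 48.4 and 46.7 FPKM in control and 44.2 and 42.4 in eKD2, a change of -0.13 with a 95% interval of -0.31 to 0.05. The lower bounds of the 95% intervals in RD-ES, -0.65 for HMGCS1 and -0.31 for ACAT2, stood above the changes of these genes in SK-N-MC. That comparison leaves out the spread of the SK-N-MC changes. In the direct test of the difference between the lines neither gene passed (limma adjusted p = 0.15 for HMGCS1 and 0.056 for ACAT2). MVD was at 11.4 and 11.8 FPKM in control and 8.79 and 10.7 in eKD2 (-0.23), and IDI1 at 30.7 and 30.1 in control and 27.5 and 23.7 in eKD2 (-0.24). Without RD-ES eKD2 replicate 1 these were -0.10 for MVD and -0.34 for IDI1, and without RD-ES eKD2 replicate 2 they were -0.36 and -0.14. MVK was at 8.03 and 11.01 FPKM in control and 9.13 and 13.8 in eKD2; these overlap, and the change of 0.23 had a 95% interval of -0.47 to 0.93. Leaving out 1 library took it from -0.04 (without RD-ES eKD2 replicate 2) to 0.50 (without RD-ES eKD2 replicate 1). PMVK was nearly the same in all 4 RD-ES libraries, at 30.3 and 30.1 FPKM in control and 30.1 and 30.0 in eKD2, with a change of -0.01 and a 95% interval of -0.19 to 0.18. For the prenyl synthases, FDPS was at 183 and 184 FPKM in control and 181 and 167 in eKD2 (-0.08). GGPS1 was at 49.6 and 45.4 FPKM in control and 52.4 and 50.9 in eKD2 (0.12). Both eKD2 libraries of GGPS1 lay above both controls, though not with each library scaled to the same median. How many of all genes did so was not counted, and 8535 of the 15175 tested had higher means in RD-ES eKD2. FDFT1 was at 85.1 and 74.5 FPKM in control and 92.0 and 76.3 in eKD2 (0.07, 95% interval -0.21 to 0.35), which overlap. Its value was -0.06 without RD-ES eKD2 replicate 1 and 0.21 without RD-ES eKD2 replicate 2; that of FDPS was -0.14 and -0.02 in these fits, and that of GGPS1 went from 0.05 to 0.18 on leaving out RD-ES control replicate 2 or 1.

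**Figure D3:**
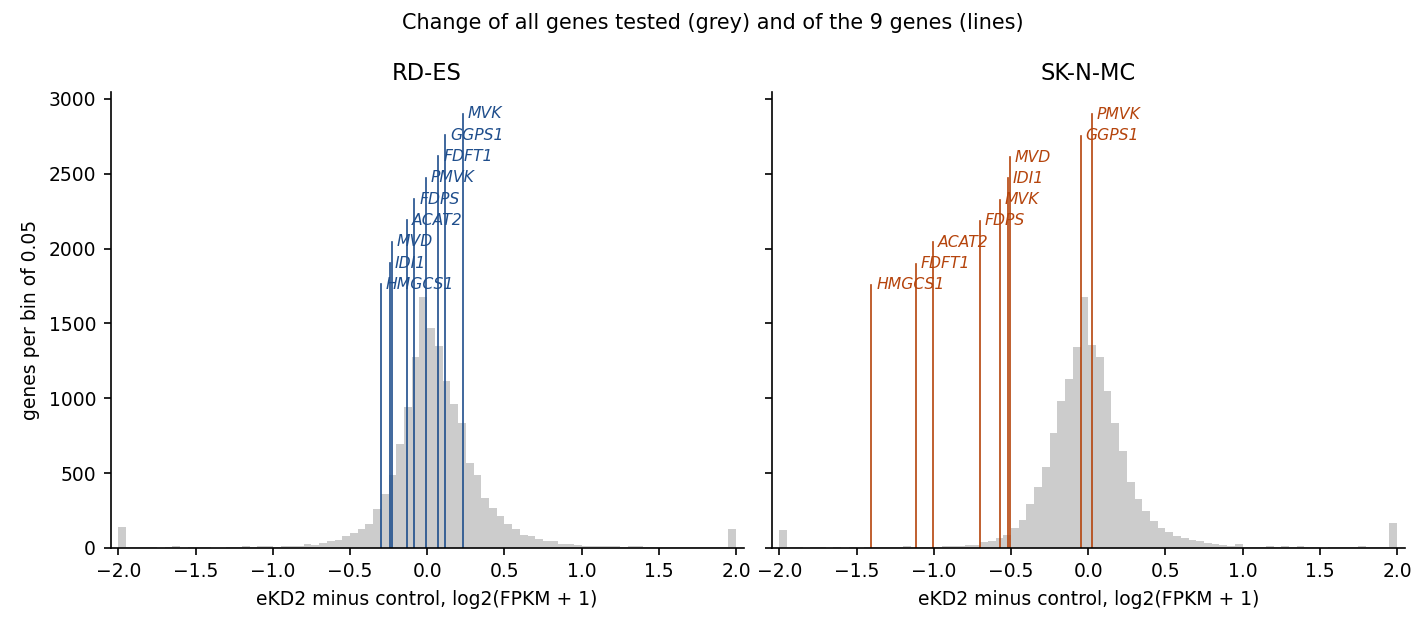
Histograms of the change with eKD2 for the 15175 genes tested in RD-ES (left) and SK-N-MC (right), as differences of log2(FPKM + 1) in bins of 0.05, with values past 2 in either direction counted in the outer bins; the labelled lines mark the 9 genes, and their heights carry no value. In SK-N-MC 7 of the lines stand at -0.51 or lower, whereas in RD-ES all lie between -0.30 and 0.23.

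The difference of the eKD2 change between the lines was tested directly, as the SK-N-MC change minus the RD-ES change. None of the 9 passed by limma with adjustment over all genes, of which 0.244% passed in either direction, and 4 of the 9 had an unadjusted p under 0.05 on the lower side, beside 9.16% of all genes. These 4 were FDFT1 (-1.19 ± 0.162, adjusted p = 0.080), HMGCS1 (-1.11 ± 0.202, adjusted p = 0.15), ACAT2 (-0.88 ± 0.104, adjusted p = 0.056) and FDPS (-0.62 ± 0.107, adjusted p = 0.14). Over the alternative settings the adjusted p of ACAT2 ranged from 0.049 to 0.22. For MVK, PMVK, MVD, IDI1 and GGPS1 the difference had unadjusted p-values from 0.095 to 0.78. The median difference of the 9 was -0.62, beside -0.049 over all genes.

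The genes around these 9 were described from lists of textbook members. ACAT1, the mitochondrial thiolase of ketone and isoleucine metabolism and a paralogue of ACAT2, did not pass in either line (0.12 for SK-N-MC and -0.08 for RD-ES, limma adjusted p = 0.75 and 0.84). IDI2, a paralogue of IDI1, was below the minimum of 1 FPKM and was not tested. Downstream, each of 11 genes from squalene to cholesterol had a lower mean in SK-N-MC eKD2, as did 7747 of the 15175 genes tested, with a median of -0.45. Of the 11, 2 were lower with an adjusted p under 0.05, beside 0.171% of all genes, and 6 at an unadjusted p under 0.05, beside 7.29%. The 2 were the lanosterol demethylase CYP51A1 (-0.93, limma adjusted p = 0.018) and the methylsterol oxidase MSMO1 (-0.86, limma adjusted p = 0.034). In RD-ES 8 of the 11 had lower means, beside 6376 of all 15175, and none passed, with 3 lower at an unadjusted p under 0.05 (3.79% of all genes) and a median of -0.16; MSMO1 (-0.37, limma adjusted p = 0.22) and EBP (-0.26, limma adjusted p = 0.26) had the lowest p-values.

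The isoprenoid branches other than sterols prenylate proteins and make dolichol and the ubiquinone tail. None of their 14 genes passed in SK-N-MC by limma, and the median was 0.034. In that line 0 of the 14 had an unadjusted p under 0.05, where 7.29% of all genes were lower. RABGGTA (0.24) and FNTA (-0.22), subunits of protein prenyltransferases, had the lowest p-values there. In RD-ES none passed and 2 were lower at an unadjusted p under 0.05, beside 3.79% of all genes. The 2 were ICMT (-0.28) and RCE1 (-0.20), which process prenylated proteins. Of 14 genes of SREBP control and sterol transport, 12 were tested, 4 were lower in SK-N-MC at an unadjusted p under 0.05 (7.29% of all genes), and 1 fell past the adjusted threshold (0.171% of all genes), INSIG1, which retains SREBP in the endoplasmic reticulum (-1.26, limma adjusted p = 0.040). The list's median was -0.099 in SK-N-MC and -0.041 in RD-ES, where none passed, 0 had an unadjusted p under 0.05, and SREBF2 (-0.16) and MBTPS1 (-0.08) had the lowest p-values.

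**Figure D4:**
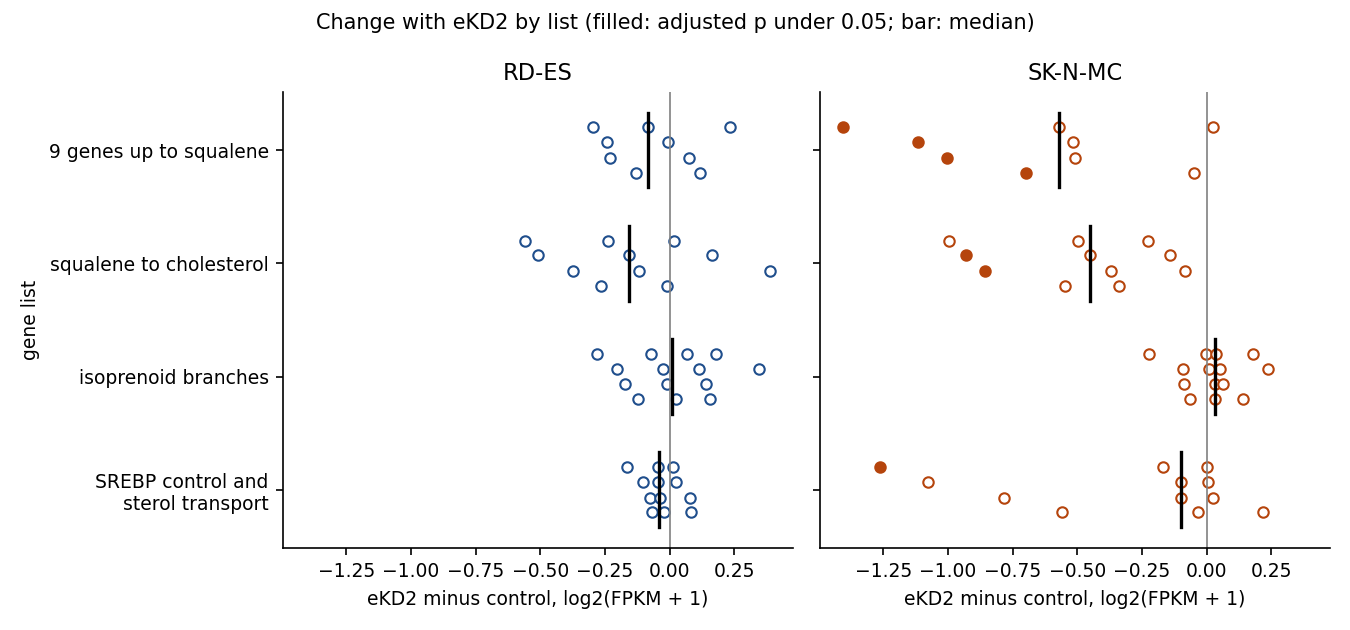
Change with eKD2 in RD-ES (left) and SK-N-MC (right) for the 9 genes and 3 neighbouring lists, as differences of log2(FPKM + 1); each point is a gene, filled where the adjusted p is under 0.05, and the black bar is the list's median. In SK-N-MC the medians are -0.57 for the 9 genes, -0.45 for squalene to cholesterol, 0.034 for the isoprenoid branches and -0.099 for SREBP control and sterol transport, and in RD-ES no point is filled.

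The 9 genes differed in how closely each followed their common pattern. The log2(FPKM + 1) of each gene was centred on the control mean of its line, and the median over the 9 genes gave 1 profile over the 8 libraries, at -0.55 and -0.65 in SK-N-MC eKD2 and -0.039 and -0.10 in RD-ES eKD2. Pearson's r with this profile, to which each gene contributes, was 0.987 for ACAT2, 0.982 for FDPS, 0.977 for FDFT1 and 0.976 for HMGCS1. It was 0.829 for IDI1, 0.785 for MVD and 0.719 for MVK. GGPS1 (0.441) and PMVK (-0.225) followed it least. Among 8767 other genes that averaged at least 10 FPKM, the 10 most like this profile were POLA2 (0.992), UPF2 (0.988), SCD (0.987), SNORD111 and SNORD88A (0.986 each), TPX2 (0.985), PHTF1 and RRP36 (0.984 each) and ZBTB40 and FCF1 (0.983 each). These values describe a profile set mainly by the 2 SK-N-MC eKD2 libraries. Of the 10, SCD, which desaturates fatty acids, had a change of -0.83 in SK-N-MC, and POLA2, a DNA polymerase alpha subunit, one of -0.39. The small nucleolar RNAs SNORD111 and SNORD88A were listed at 0 in both SK-N-MC eKD2 libraries and in all RD-ES libraries, and stood at 114 and 260 FPKM (SNORD111) and 140 and 318 FPKM (SNORD88A) in SK-N-MC control, so no fold is given for them.

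The calls in SK-N-MC rest on a spread shared over 2 libraries per group, and with so few libraries the smallest two-sided p of an exact permutation test would be 0.333. With the spread estimated from SK-N-MC alone, 0 of the 9 passed by limma, although 6 of the 9 were lower at an unadjusted p under 0.05 in the fit of all groups and the fitted changes were the same. Some of these calls were also lost in each fit that left out 1 library. In those fits the SK-N-MC changes ran from -1.06 to -0.95 for ACAT2 and from -1.47 to -1.34 for HMGCS1. They ran from -0.76 to -0.63 for FDPS and from -1.18 to -1.06 for FDFT1.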

How the data were processed

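RNA was prepared from 8 cultures (RD-ES and SK-N-MC, control and eKD2, 2 libraries per group) and sequenced with single-end reads of 75 bases. Per the study's methods, the authors aligned reads to GRCh37 with STAR and computed gene values with cufflinks and cuffnorm; the submitters' processing notes also name FastQC and DESeq2. The deposited values are FPKM per gene and library, without read counts, and any scaling of libraries by cuffnorm is contained in them. The rough depths, from the value of 1 read in genes with 1 transcript, rest on 3.14% to 3.59% of the genes used for them.

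The 15175 of 60332 genes that averaged 1 FPKM or more in the 8 libraries were compared as log2(FPKM + 1), with a pseudocount of 1, which understates the change of low genes. All 4 groups entered 1 limma fit (version 3.58.1, R 4.3.3; eBayes with trend, 4 residual degrees of freedom), two-sided, with Benjamini-Hochberg adjustment over all genes and a threshold of 0.05. The fit was tested on simulated data. Groups came from the sample labels. The 9 genes and the neighbouring lists were chosen with earlier results of these data known; all 9 passed the filter. In the lists, values are given for genes that passed in a line, or else for the 2 of lowest p per line. TCP1, MMAB and ARID4B were named because they overlap one of the 9. The genes of most similar pattern are the 10 with the highest r among those reported. Some genes are not reported here and were left out of the lists, though not of the fit. Replicates of a group correlated with r of 0.937 to 0.945 across genes, which are not independent, so no library was counted as a copy of another. Alternatives were another pseudocount, no filter, other scalings, a fit per line, no trend, the replicate number as a block, and leaving out each library. p-values measure only the spread between libraries of the same group, pooled over the 4 groups and partly shared between genes.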

Additional observations from a re-analysis of the deposited data

Results flagged for a closer look

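In 1 gene outside the 9, CYP51A1, the lanosterol demethylase on the way from squalene to cholesterol, the change with eKD2 differed between the lines by the test of that difference (limma, adjusted over all genes). It was at 36.7 and 37.2 FPKM in SK-N-MC control and 19.4 and 18.5 in eKD2, while in RD-ES both eKD2 libraries (24.3 and 25.0) stood above both controls (20.5 and 23.3); the difference of the changes was -1.10 (adjusted p = 0.038). None of the 9 genes met this criterion.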

How the results depend on the processing

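The changes of ACAT2 (-1.06 to -0.95), HMGCS1 (-1.47 to -1.34), FDPS (-0.76 to -0.63) and FDFT1 (-1.18 to -1.06) in SK-N-MC kept their direction under all 15 alternatives, but their calls did not. Of the 9 genes, 4 passed in SK-N-MC as reported and under pseudocount 0.1, no filter, median scaling and quantile normalization, 0 passed with each line fitted alone, 1 without the trend, and 0 to 2 when 1 library was left out; the adjusted p over all alternatives ranged from 0.0067 to 0.17 for ACAT2, 0.020 to 0.21 for HMGCS1, 0.020 to 0.24 for FDPS and 0.030 to 0.18 for FDFT1. With the replicate number as a block, 0 of the 9 passed in SK-N-MC (adjusted p of 0.091 to 0.12 for the 4), and the genes called went from 49 to 5 in SK-N-MC, 52 to 11 in RD-ES and 37 to 7 for the difference between the lines; the deviations of same-numbered libraries correlated with r of 0.056 (RD-ES) and 0.0274 (SK-N-MC), so the numbers do not show a pairing. The cause of these losses was not tested.

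With no filter the genes called were 79 in RD-ES, 118 in SK-N-MC and 66 for the difference between the lines. Each line fitted alone gave 1 and 13, and leaving out 1 library gave 27 to 71, 12 to 76 and 54 to 81. In RD-ES 0 of the 9 genes passed under every alternative. For the difference between the lines 1 of the 9 passed with no filter and with quantile normalization (ACAT2) and 0 to 1 with 1 library left out. The share of lower genes among those with an unadjusted p under 0.05 in RD-ES was 30.9% as deposited, 58.8% with median scaling and 46.3% with quantile normalization, and for the difference between the lines 67.6%, 43.7% and 56.6%.

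The median change of the 9 genes was -0.154 in RD-ES with median scaling, and -0.102 (without RD-ES eKD2 replicate 1) to -0.0393 (without RD-ES eKD2 replicate 2) with 1 library left out. In SK-N-MC it was -0.635 with pseudocount 0.1 and -0.765 to -0.546 with 1 library left out. For the difference between the lines it was -0.534 with median scaling and -0.682 to -0.469 with 1 library left out, and for the controls 0.366 with median scaling, 0.439 with quantile normalization, 0.435 with the replicate block and 0.442 to 0.537 with 1 library left out. The values that turned in sign when 1 library was left out were FDFT1 (-0.061 to 0.21) and MVK (-0.039 to 0.50) in RD-ES, PMVK (-0.043 to 0.095) and GGPS1 (-0.13 to 0.031) in SK-N-MC, PMVK for the difference between the lines (-0.037 to 0.10), and MVK between the controls (-0.38 to 0.28, and 0.063 with the replicate block). Depth is known only roughly, which limits how far low levels such as those of MVK can be read.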
